A study of Mus musculus with 18 samples.

Results

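The 10 genes described here are mouse Toll-like receptor genes and their close partners: Tlr1, Tlr2, Tlr3, Tlr4, Tlr6, Tlr7, Tlr9, Tlr13, the co-receptor gene Cd14 and the adaptor gene Myd88. They were picked by gene name from a matrix of raw read counts that holds 25918 distinct gene names, and each of the 10 passed the filter on low counts in every comparison. RNA was sequenced from BALB/c mice in 18 libraries, 3 to a group. Cortex of the brain gave groups at 2 days and at 6 days of ischemic injury and a control group. Skull, sampled at the interparietal bone, gave groups at 2 days and at 4 days of injury and its own control group. Per the labels the tissue taken held ischemic and peri-ischemic parts, and they give neither the age and sex of the animals nor what was done to the controls. Nothing in the labels says that each library came from a separate animal, so the p-values measure the spread between these libraries, which may be technical.

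Toll-like receptors are membrane proteins that bind conserved parts of microbes, and several of them also respond to molecules released by damaged cells. TLR2 works at the cell surface as a pair with TLR1 or TLR6 and binds lipopeptides, and TLR4 binds lipopolysaccharide that CD14 hands over to it. TLR3, TLR7, TLR9 and TLR13 sit in endosomes and bind dsRNA, ssRNA, unmethylated CpG DNA and bacterial ribosomal RNA, in that order. All of these receptors except TLR3 signal through MyD88, which recruits IRAK kinases and TRAF6 and so activates NF-kB, while TLR3 signals through TRIF, the product of Ticam1. In brain the receptors are known mainly from microglia and from myeloid cells that enter after injury, and in bone from the myeloid cells of the marrow and from osteoclast precursors.

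Total counts per library were 17199036 to 18476057 in cortex at day 2, 13005050 to 22236424 at day 6 and 23673255 to 27654269 in cortex controls. In skull they were 15113558 to 15382973 at day 2, 13142770 to 15445503 at day 4 and 13398631 to 14765111 in controls. Neuron markers (7 genes) were present in every cortex library, with sums between 6300 and 11100 CPM (counts scaled to a common library size), and osteoblast markers (6 of 7 in the table) in every skull library, with sums between 21500 and 73900 CPM. Skull controls also held neuron RNA: the neuron markers summed to 48.4 to 146 CPM at day 2, 95 to 132 CPM at day 4 and 497 to 911 CPM in skull controls. Ttr, a transcript of the choroid plexus, was uneven between libraries. In skull it was at 70.2, 7380 and 1430 CPM of the library total at day 2, at 2580, 1260 and 347 CPM at day 4 and at 1.69 to 6.34 CPM in controls. In cortex it was at 2.03, 213 and 4.25 CPM at day 2, at 0.18 to 0.657 CPM at day 6 and at 14.3 to 24.5 CPM in controls. The 10 genes themselves had between 10 and 689 reads in a library, and Tlr9 was the thinnest, with 10 to 64.

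The promoters of 4 of the genes are shown because these genes mark the ends of what follows: Tlr2 and Tlr13 had the 2 highest fold changes in cortex at day 2, Myd88 passed the test in every comparison, and Tlr9 stayed near its control level in cortex at day 2. RefSeq windows (GRCm38.p6, the assembly of mm10) reached from 250 bases before to 50 bases after a transcript start. They were used for 7 of the 10 genes, 9 windows in all. Capitals mark every stretch that matches, on either strand, a site of NF-kB searched as GGG, any 5 bases and CC, of the myeloid factor PU.1 searched as GAGGAA, or the interferon-stimulated response element searched as GAAA, any 2 bases and GAAA, with overlapping matches joined. The sequences run 5′ to 3′ along the strand of the gene.
Tlr2, chr3:83841559-83841858, minus strand: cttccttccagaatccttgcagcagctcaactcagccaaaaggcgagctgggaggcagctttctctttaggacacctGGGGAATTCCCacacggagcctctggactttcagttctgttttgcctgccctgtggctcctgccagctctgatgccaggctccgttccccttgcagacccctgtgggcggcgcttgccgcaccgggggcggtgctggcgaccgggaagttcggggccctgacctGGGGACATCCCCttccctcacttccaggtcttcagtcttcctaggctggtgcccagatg
Tlr13, chrX:106143025-106143324, plus strand: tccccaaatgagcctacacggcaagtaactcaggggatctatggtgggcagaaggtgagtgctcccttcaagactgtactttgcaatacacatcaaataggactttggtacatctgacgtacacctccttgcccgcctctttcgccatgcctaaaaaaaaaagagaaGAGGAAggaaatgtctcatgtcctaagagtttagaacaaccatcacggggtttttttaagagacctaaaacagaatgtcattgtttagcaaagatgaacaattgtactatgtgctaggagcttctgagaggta
Myd88, chr9:119339969-119340268, minus strand: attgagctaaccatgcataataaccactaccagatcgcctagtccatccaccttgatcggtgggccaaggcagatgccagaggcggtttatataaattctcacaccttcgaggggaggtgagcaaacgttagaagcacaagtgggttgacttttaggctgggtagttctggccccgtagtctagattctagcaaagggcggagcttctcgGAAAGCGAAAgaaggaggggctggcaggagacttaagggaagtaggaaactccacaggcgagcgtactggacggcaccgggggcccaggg
Tlr9, chr9:106222348-106222647, plus strand: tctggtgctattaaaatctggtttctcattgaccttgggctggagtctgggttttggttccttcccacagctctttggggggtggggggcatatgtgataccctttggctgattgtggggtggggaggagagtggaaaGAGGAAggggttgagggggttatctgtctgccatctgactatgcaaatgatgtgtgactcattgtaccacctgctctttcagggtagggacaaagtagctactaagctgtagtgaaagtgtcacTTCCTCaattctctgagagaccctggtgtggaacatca

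The Tlr2 window held 2 stretches of the NF-kB letters, that of Tlr13 held 1 of the PU.1 letters, that of Myd88 held 1 of the interferon element and that of Tlr9 held 2 of the PU.1 letters. Over the 9 windows, 3 held the NF-kB letters, 3 those of PU.1 and 2 those of the interferon element, against 50.8%, 28.3% and 3.44% of the 32851 windows in the RefSeq table. No window of Tlr4, Tlr7 or Cd14 was used, so these counts leave those genes out. The matches describe the letters of the windows and were not tested for binding.

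Most of the family was higher in injured cortex. At day 2, 9 of the 10 genes were higher than in control cortex, by between 1.51-fold for Tlr3 and 20.6-fold for Tlr2, and Tlr9 was the exception. In each of these 9 genes the 3 injured libraries lay above the 3 control libraries. The median log2 change was 2.3 over the 10 genes and 0.00035 over the 18151 genes tested. Of all genes tested, 24.7% passed the threshold (adjusted p below 0.05), 14.7% did so as higher and 9.99% as lower, and 39% had groups that did not overlap.

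**Figure D1:**
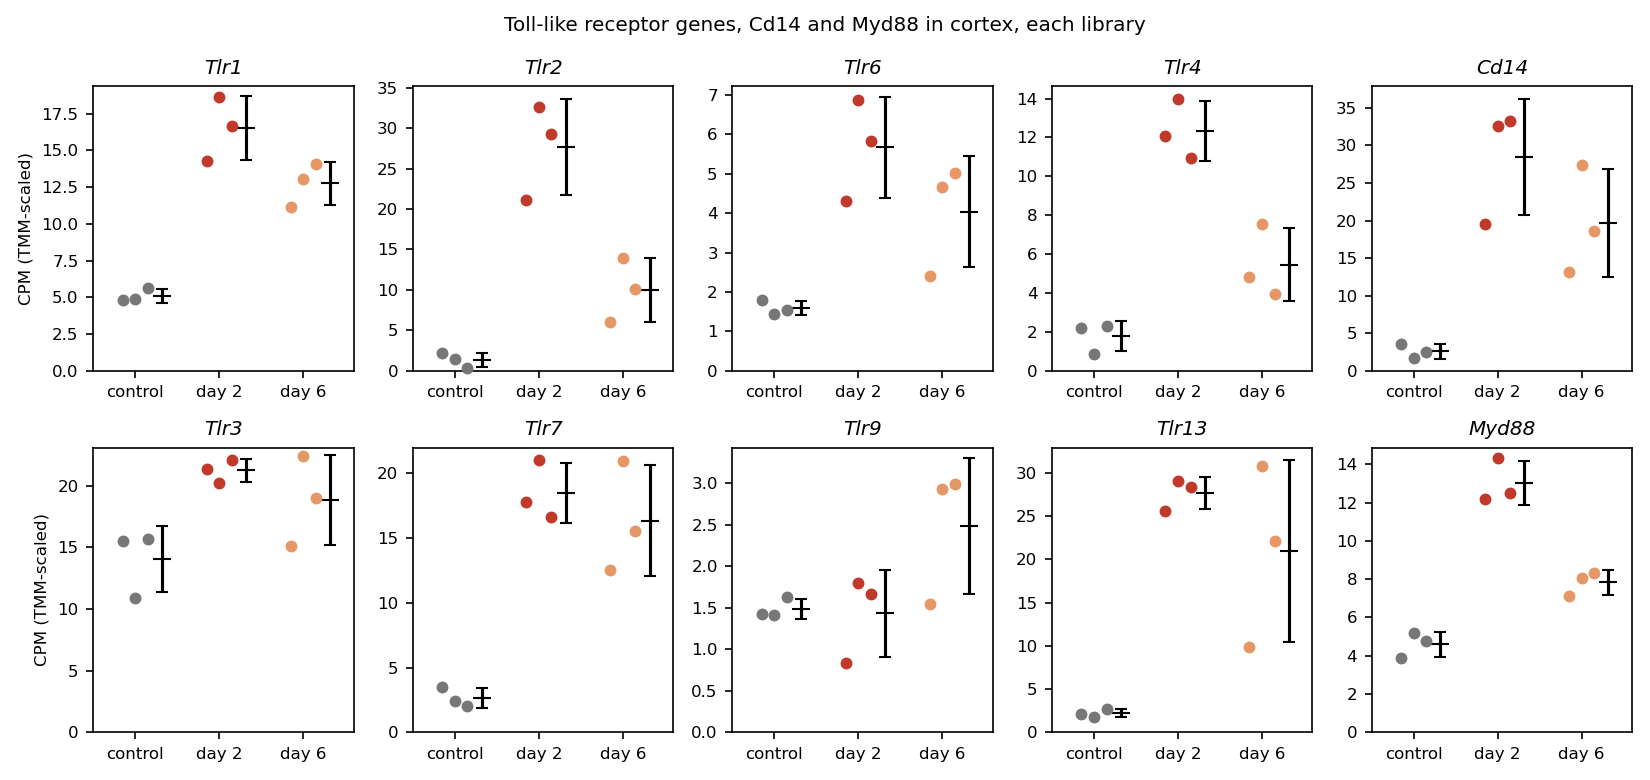
Level of each of the 10 genes in cortex in CPM (TMM-scaled, linear axes from 0), with 1 point per library for controls, day 2 and day 6 and the mean ± SD (n = 3) beside the points. Tlr2 sits between 21.1 and 32.6 CPM at day 2 and between 0.416 and 2.18 CPM in controls, while the Tlr9 points of these groups overlap.

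Among the surface receptors for lipopeptides, Tlr2, the shared partner, rose most. It had 21.1, 32.6 and 29.3 CPM in cortex at day 2, against 2.18, 1.41 and 0.416 CPM in control cortex. The lowest injured library was far above the highest control, and the controls differed among themselves, from 10 to 52 reads. The log2 change was 4.37 ± 0.49 (SE; adjusted p 0.000261 in edgeR's quasi-likelihood test). Tlr1, which pairs with it on triacylated lipopeptides, had 14.3, 18.6 and 16.7 CPM at day 2, against 4.82, 4.87 and 5.62 CPM in controls, a log2 change of 1.69 ± 0.17. Tlr6, the partner on diacylated lipopeptides, had 4.32, 6.87 and 5.82 CPM at day 2, against 1.80, 1.45 and 1.54 CPM in controls, a log2 change of 1.83 ± 0.31. Both partners were separated from their controls without overlap, and their log2 changes stood below that of Tlr2, a gap between genes that was not tested. Tlr1 and Tlr6 lie on the minus strand of chromosome 5 of mm10, at chr5:64924679-64933563 and chr5:64952031-64960097.

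The lipopolysaccharide receptor and its co-receptor rose as well. Cd14, which delivers the ligand, had 19.5, 32.6 and 33.3 CPM at day 2, against 3.64, 1.71 and 2.50 CPM in controls. Its lowest injured library was well above its highest control, and the log2 change was 3.45 ± 0.36 (adjusted p 9.09e-05). Tlr4 had 12.1, 14.0 and 10.9 CPM at day 2, against 2.22, 0.893 and 2.29 CPM in controls. These groups were also apart, with a log2 change of 2.78 ± 0.33 (adjusted p 6.76e-05). Ly96, the secreted subunit that holds lipopolysaccharide on TLR4, rose by 1.24 ± 0.38 on the log2 scale (adjusted p 0.0285).

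The endosomal receptors split. Tlr13, the mouse receptor for bacterial ribosomal RNA, had 25.5, 29.1 and 28.4 CPM at day 2, against 2.18, 1.78 and 2.71 CPM in controls, and Tlr7, the receptor for ssRNA, had 17.7, 21.01 and 16.6 CPM, against 3.48, 2.42 and 2.00 CPM in controls. Both were tightly grouped at day 2 and clear of their controls, with log2 changes of 3.64 ± 0.38 and 2.81 ± 0.24. Tlr3, the dsRNA receptor, had 21.4, 20.2 and 22.1 CPM at day 2, against 15.5, 10.9 and 15.7 CPM in controls. Its injured libraries lay above all controls but by little, and the log2 change of 0.60 ± 0.17 passed the test (adjusted p 0.0223). That call was lost without control replicate 2, the lowest control (log2 0.44, adjusted p 0.109), and without day 2 replicate 3 (log2 0.57, adjusted p 0.0647). Tlr9, the receptor for CpG DNA, had 0.831, 1.79 and 1.67 CPM at day 2, against 1.42, 1.41 and 1.62 CPM in controls. The groups overlapped, and the log2 change of -0.05 ± 0.39 (95% interval -0.883 to 0.782, adjusted p 0.946) did not pass the test.

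Myd88, the adaptor that these receptors except TLR3 share, had 12.2, 14.3 and 12.5 CPM at day 2, against 3.90, 5.17 and 4.75 CPM in controls. The groups did not overlap and the log2 change was 1.497 ± 0.183 (adjusted p 6.72e-05). Exons of Myd88 share 290 bases with Acaa1a on the opposite strand, and those of Tlr3 share 381 bases with the antisense locus Gm45542. The strand setting of the counting is not given in the sources used here, so reads from the shared bases cannot be told apart. Acaa1a itself, a peroxisomal thiolase gene, had 28.0 to 38.2 CPM at day 2, against 29.8 to 34.6 CPM in controls, a log2 change of 0.04 ± 0.12 (adjusted p 0.853).

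Markers of myeloid cells and of other cells moved with the receptors in cortex at day 2. The macrophage list rose in 7 of 7 genes tested, with sums of 275 to 351 CPM at day 2, against 99.4 to 119 CPM in controls. The neutrophil list rose in 5 of 7 genes tested, with sums of 48.7 to 67.5 CPM against 2.46 to 4.69 CPM in controls, where up to 4 of its 10 genes were at 0. The monocyte list rose in 5 of 6, with sums of 26.4 to 44.7 CPM at day 2 against 0.958 to 1.38 CPM in controls, where up to 3 of its genes were at 0. Of the microglia list, 5 of 9 genes rose and 2 fell, with sums of 415 to 456 CPM at day 2 against 213 to 250 CPM in controls. The endothelial list rose in 4 of 5 genes, with sums of 145 to 249 CPM at day 2 against 79 to 87 CPM in controls, and the astrocyte list rose in 3 of 5 and fell in 1, with sums of 5770 to 6540 CPM against 4150 to 4780 CPM. The part of these cells in the receptor changes was not tested, and in bulk tissue more cells of a type and more RNA per cell cannot be told apart.

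At day 6, 8 of the 10 genes were still higher in injured than in control cortex, Tlr3 and Tlr9 being the others, while 10.3% of all genes passed the threshold, 7.93% as higher and 2.39% as lower. The same 8 genes had groups without overlap, as did 30.9% of all genes. The median log2 change was 1.47 over the 10 genes and -0.018 over all genes. Tlr13 had 9.89, 30.8 and 22.1 CPM at day 6, against 1.78 to 2.71 CPM in controls. Cd14 had 13.2, 27.3 and 18.6 CPM, against 1.71 to 3.64 CPM in controls. Tlr7 had 12.5, 20.9 and 15.5 CPM, against 2.00 to 3.48 CPM in controls. In all 3 genes replicate 1 was the lowest injured library and replicate 2 the highest, and every injured library was above the controls. The log2 changes were 3.24 ± 0.38 for Tlr13, 2.92 ± 0.35 for Cd14 and 2.63 ± 0.24 for Tlr7. The same order of the day 6 libraries was seen in the sums of several marker lists, myeloid and other. The microglia list had 441, 721 and 570 CPM and the macrophage list 275, 551 and 422 CPM. The endothelial list had 123, 159 and 143 CPM and the astrocyte list 5452, 6061 and 5756 CPM. The osteoblast list had 133.5, 510.1 and 365.3 CPM, but only 1 of its 4 genes tested was higher than in controls. Neuron markers had the reverse order, at 9408, 8639 and 9073 CPM, and so did the neutrophil list, at 8.91, 7.92 and 8.40 CPM. The part of all these cells in the spread of the receptors was not tested.

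The other 5 genes that passed at day 6 also lay above their controls in every library. Tlr2 had 6.03, 13.9 and 10.2 CPM, above the control range of 0.416 to 2.18 CPM, a log2 change of 2.91 ± 0.49. Tlr4 had 4.84, 7.56 and 3.96 CPM, above the control range of 0.893 to 2.29 CPM, a log2 change of 1.62 ± 0.33. Tlr1 had 11.2 to 14.1 CPM against 4.82 to 5.62 CPM in controls, which was 1.32 ± 0.17 on the log2 scale. For Tlr6 the values were 2.42, 4.67 and 5.01 CPM at day 6, against 1.45 to 1.80 CPM in controls, a log2 change of 1.33 ± 0.31 (adjusted p 0.0147). Myd88 had 7.11, 8.06 and 8.32 CPM, against 3.90 to 5.17 CPM in controls, which was 0.76 ± 0.18 on the log2 scale (adjusted p 0.0162). The Tlr6 call was lost without control replicate 2 or 3 or without day 6 replicate 2 or 3 (adjusted p 0.0554 to 0.0772), and the Myd88 call without control replicate 3 or without day 6 replicate 2 or 3 (adjusted p 0.0521 to 0.069). Tlr3 had 15.1, 22.4 and 19.0 CPM, overlapping its controls (log2 0.42, 95% interval 0.0486 to 0.8, adjusted p 0.152). Tlr9 had 1.54, 2.93 and 2.99 CPM, with replicate 1 inside the range of the controls (log2 0.73, 95% interval -0.0809 to 1.55, adjusted p 0.261).

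Between the injured days, 2 of the 10 genes passed the test and both were lower at day 6, namely Tlr4 and Myd88, against 11.6% of all genes called, 6.26% as lower and 5.3% as higher. Groups were apart in 4 of the 10 genes and in 30.5% of all genes, and the median log2 change was -0.45 over the 10 genes. Tlr4 had 3.96 to 7.56 CPM at day 6, against 10.9 to 14.0 CPM at day 2, a log2 change of -1.16 ± 0.31 (adjusted p 0.0278). Myd88 had 7.11 to 8.32 CPM at day 6, against 12.2 to 14.3 CPM at day 2, a log2 change of -0.74 ± 0.18 (adjusted p 0.018). Both calls were lost when replicate 2 of day 2 or replicate 1 or 3 of day 6 was left out, and that of Tlr4 also on leaving out replicate 1 of day 2 (adjusted p 0.0574 to 0.126). Tlr2 and Tlr1 had groups without overlap and did not pass the test, with log2 changes of -1.46 ± 0.42 (adjusted p 0.0558) and -0.38 ± 0.17 (adjusted p 0.165). The days overlapped in Tlr7, with a log2 change of -0.17 and a 95% interval of -0.641 to 0.29, and in Tlr13, with -0.40 and -1.13 to 0.322. Cd14, Tlr6 and Tlr3 overlapped too, with log2 changes of -0.53, -0.50 and -0.17. Tlr9 alone of the 10 had the higher fitted level at day 6, with 1.54, 2.93 and 2.99 CPM against 0.831, 1.79 and 1.67 CPM at day 2, overlapping groups and a log2 change of 0.78 ± 0.39 (adjusted p 0.217). The summed monocyte markers were 2.94 to 7.37 CPM at day 6, against 26.4 to 44.7 CPM at day 2, with 4 of 6 genes lower, and the neutrophil markers were 7.92 to 8.91 CPM against 48.7 to 67.5 CPM, with 4 of 7 tested lower. The microglia list had 3 of 9 genes higher and 1 lower, with sums of 441 to 721 CPM at day 6 against 415 to 456 CPM at day 2. Of the macrophage list, 1 of 7 genes was higher and 2 were lower, with sums of 275 to 551 CPM against 275 to 351 CPM. The part of these cells in the lower Tlr4 and Myd88 was not tested.

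**Figure D2:**
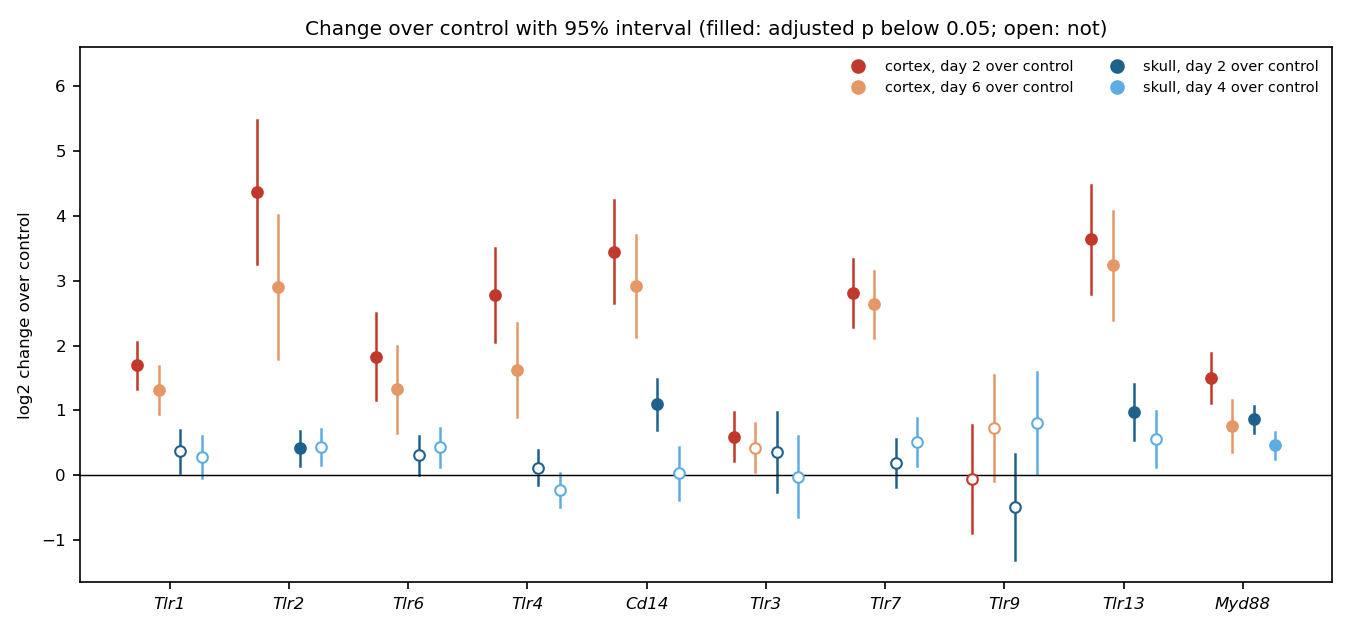
Log2 change over control of each of the 10 genes with its 95% interval from the edgeR fit, for cortex at days 2 and 6 and skull at days 2 and 4 (filled points passed adjusted p below 0.05, open points did not). The cortex points of Tlr2, Tlr13 and Cd14 reach 4.37, 3.64 and 3.45 at day 2, while in skull the highest is Cd14 at day 2 with 1.09.

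In skull fewer of the genes passed the test. At day 2, 4 of the 10 were higher than in control skull, namely Cd14, Tlr13, Myd88 and Tlr2, where 34.4% of all genes passed the threshold, 17.8% as higher and 16.6% as lower. The libraries of the groups were apart in 6 genes, and in 47.7% of all genes. The median log2 change was 0.37 over the 10 genes and -0.010 over the 17450 genes tested.

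**Figure D3:**
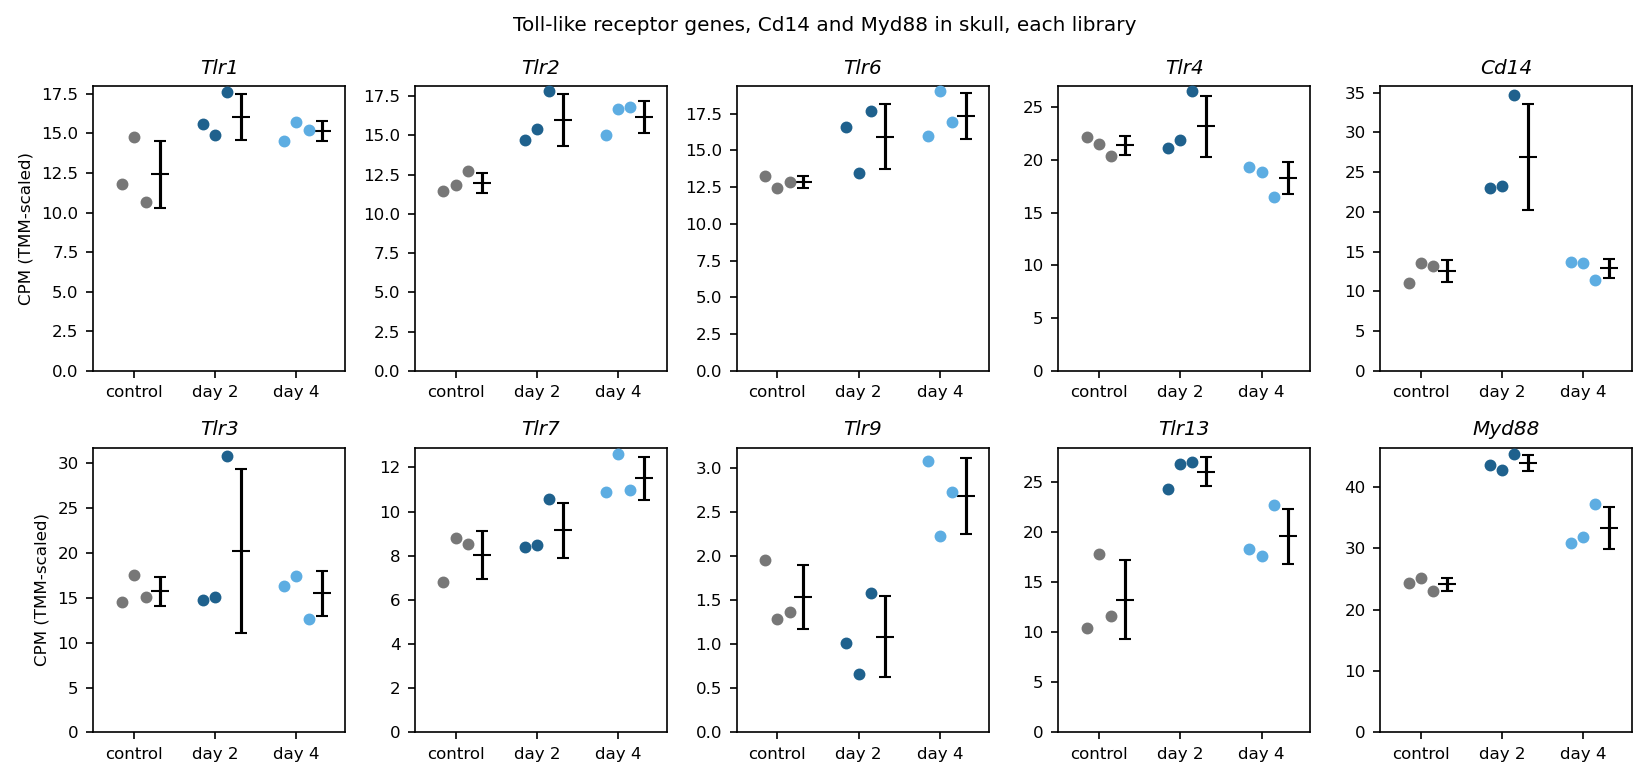
Level of each of the 10 genes in skull in CPM (TMM-scaled, linear axes from 0), with 1 point per library for controls, day 2 and day 4 and the mean ± SD (n = 3) beside the points. Myd88 sits between 42.7 and 45.3 CPM at day 2, between 30.8 and 37.2 CPM at day 4 and between 23.0 and 25.1 CPM in controls, and 1 library at day 2 stands above the others in Tlr3.

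Myd88 had 43.6, 42.7 and 45.3 CPM in skull at day 2, against 24.3, 25.1 and 23.0 CPM in control skull. The libraries of each group were close together and far from the other group, with a log2 change of 0.86 ± 0.09 (adjusted p 0.000276). Cd14 had 23.0, 23.2 and 34.6 CPM at day 2, against 11.03, 13.6 and 13.2 CPM in controls, and replicate 3 stood above the other injured libraries. Its log2 change was 1.09 ± 0.18 (adjusted p 0.00168). Tlr13 had 24.3, 26.8 and 27.0 CPM at day 2, against 10.4, 17.8 and 11.6 CPM in controls, so that control replicate 2 was the nearest to the injured group. The log2 change was 0.97 ± 0.19 (adjusted p 0.00441). Tlr2 had 14.7, 15.4 and 17.8 CPM at day 2, against 11.4, 11.8 and 12.7 CPM in controls, without overlap and by a log2 change of 0.41 ± 0.12 (adjusted p 0.027). The Tlr2 call was lost when replicate 1 or 3 of the controls or replicate 3 of day 2 was left out (adjusted p 0.058 to 0.104) and in a fit of these 6 libraries alone (adjusted p 0.0635).

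Among the others, Tlr1 had 14.9 to 17.6 CPM in skull at day 2, against 10.7 to 14.8 CPM in controls, and Tlr6 had 13.5 to 17.7 CPM, against 12.4 to 13.2 CPM in controls. Neither pair of ranges overlapped and neither gene passed the test, with log2 changes of 0.37 ± 0.15 (adjusted p 0.0752) and 0.31 ± 0.14 (adjusted p 0.102). Tlr4 had 21.1, 21.9 and 26.5 CPM at day 2, against 22.2, 21.6 and 20.3 CPM in controls, and Tlr7 had 8.41, 8.47 and 10.6 CPM, against 6.79, 8.78 and 8.54 CPM. Both overlapped their controls, with 95% intervals of the log2 change of -0.15 to 0.385 for Tlr4 and -0.184 to 0.56 for Tlr7. Tlr3 had 14.7, 15.1 and 30.8 CPM at day 2, against 14.5, 17.6 and 15.1 CPM in controls. A single library, replicate 3, lay above the controls, and the log2 change was 0.36 with it and -0.08 without it, neither past the test (adjusted p 0.336 and 0.744). Tlr9 had 1.02, 0.667 and 1.58 CPM at day 2, from 10 to 24 reads, against 1.95, 1.28 and 1.37 CPM in controls, overlapping groups with a log2 change of -0.49 and a 95% interval of -1.31 to 0.325.

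At day 4, 1 of the 10 genes, Myd88, was higher in injured than in control skull by the test, against 10.6% of all genes called, 5.83% as higher and 4.79% as lower. It had 30.8, 31.9 and 37.2 CPM at day 4, against 24.3, 25.1 and 23.0 CPM in controls, groups without overlap and a log2 change of 0.46 ± 0.09 (adjusted p 0.0199). Leaving out replicate 3 of the controls (adjusted p 0.0875) or of day 4 (adjusted p 0.0792) ended the call, as did a fit of these 6 libraries alone (adjusted p 0.0553). The number of all genes called in this comparison hung on single libraries too: it was 1853, but 10 when replicate 3 of the controls was left out, 590 on leaving out replicate 2 of day 4 and 237 on leaving out its replicate 3. Groups did not overlap in 6 of the 10 genes, Tlr2, Tlr6, Tlr7, Tlr9 and Myd88 on the higher side and Tlr4 on the lower side, and in 31.1% of all genes. The median log2 change was 0.43 over the 10 genes and 0.016 over all genes. Tlr2 had 15.01, 16.7 and 16.8 CPM at day 4, against 11.4 to 12.7 CPM in controls, a log2 change of 0.43 ± 0.12 (adjusted p 0.0539). Cd14 had 13.7, 13.5 and 11.5 CPM, within or near the control range of 11.03 to 13.6 CPM, with a log2 change of 0.03 and a 95% interval of -0.372 to 0.432. Tlr13 had 18.4, 17.6 and 22.8 CPM, against 10.4, 17.8 and 11.6 CPM in controls (adjusted p 0.0929), and passed the test without control replicate 2 (log2 0.81, adjusted p 0.00484). Tlr7 had 10.9, 12.6 and 10.99 CPM, against 6.79 to 8.78 CPM in controls, and Tlr6 had 15.97, 19.04 and 16.9 CPM, against 12.4 to 13.2 CPM. Both were clear of their controls without passing the test (log2 0.52 and 0.43, adjusted p 0.0758 and 0.0704). Tlr9 had 3.08, 2.23 and 2.73 CPM, against 1.28 to 1.95 CPM in controls (log2 0.80 ± 0.35, adjusted p 0.169), and Tlr4 had 19.4, 18.9 and 16.5 CPM, against 20.3 to 22.2 CPM (log2 -0.23 ± 0.12, adjusted p 0.255). Tlr3 overlapped its controls at 12.6 to 17.5 CPM, as did Tlr1 at 14.5 to 15.7 CPM.

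Between day 4 and day 2 in skull, Cd14, Myd88 and Tlr9 passed the test, where 21.6% of all genes did, 10.6% as higher and 11.1% as lower. Cd14 had 11.5 to 13.7 CPM at day 4, against 23.0 to 34.6 CPM at day 2, a log2 change of -1.06 ± 0.18 (adjusted p 0.00358). Myd88 had 30.8 to 37.2 CPM at day 4, against 42.7 to 45.3 CPM at day 2, a log2 change of -0.40 ± 0.09 (adjusted p 0.0152). Tlr9 went the other way, with 3.08, 2.23 and 2.73 CPM at day 4, against 1.02, 0.667 and 1.58 CPM at day 2. Its groups did not overlap and the log2 change was 1.29 ± 0.36 (adjusted p 0.0298). The libraries were apart in 6 of the 10 genes, these 3 and Tlr4, Tlr7 and Tlr13, and in 42.6% of all genes, and the median log2 change was -0.21 over the 10 genes and 0.018 over all genes. The Tlr9 call was lost without day 2 replicate 1 or 2 or day 4 replicate 1 or 3 (adjusted p 0.0819 to 0.0995), and that of Myd88 without day 2 replicate 3 or day 4 replicate 1 or 2 (adjusted p 0.053 to 0.0619). B cells, which express Tlr9, had marker sums of 96.7 to 162 CPM at day 4, against 55.5 to 64.6 CPM at day 2, with 5 of 7 genes higher, and the plasmacytoid dendritic cell list had 1 of 5 genes tested higher and 1 lower. In skull controls, where Tlr9 had 1.28 to 1.95 CPM, the B cell sums were 126 to 164 CPM. Other lists were higher at day 4 than at day 2 too, among them 8 of 10 neutrophil, 5 of 7 macrophage and 5 of 9 microglia markers. The part of these cells in the Tlr9 change was not tested.

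Marker lists of myeloid cells in skull differed in how many genes passed. Of all genes, 17.8% were called higher and 16.6% lower at day 2, and 5.83% and 4.79% at day 4. Between the days, 10.6% were higher at day 4 than at day 2. The monocyte list rose in 6 of 6 genes at day 2 and at day 4, with sums of 203 to 230 CPM and 255 to 374 CPM, against 86.6 to 112 CPM in controls. The neutrophil list rose in 1 of 10 genes at day 2 and in 9 of 10 at day 4, with sums of 3200 to 3490 CPM and 5230 to 8950 CPM, against 1600 to 2720 CPM in controls. The macrophage list had 1 gene higher and 3 lower of 7 at day 2, at sums of 346 to 397 CPM. At day 4 it had 2 of 7 higher, at 535 to 658 CPM, against 442 to 477 CPM in controls. Of the microglia list, 0 of 9 genes were higher and 4 lower at day 2, and 1 was higher at day 4. Its sums were 737 to 894 CPM at day 2 and 784 to 1020 CPM at day 4, against 760 to 789 CPM in controls. The sums hid differences between its genes, whose median log2 change at day 2 was -1.25. Of the library total, Tmem119 had 175 to 273 CPM at day 2, against 215 to 222 CPM in skull controls and 15.5 to 23.3 CPM in cortex controls. Cx3cr1 had 10.7 to 13.5 CPM at day 2, against 29.9 to 31.9 CPM in skull controls. Fcrls had 5.27 to 7.08 CPM, against 18.4 to 23.8 CPM. The osteoclast list had 1 of 5 genes higher at day 2, with sums of 1470 to 2110 CPM at day 2 and 1250 to 2580 CPM at day 4, against 1150 to 1200 CPM in controls, so that the sums did not overlap. Beside the lower Cd14 and Myd88 of day 4, 8 of 10 neutrophil markers and 5 of 7 macrophage markers were higher than on day 2. The part of these cells in the receptor changes was not tested.

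The difference between the day 2 responses of cortex and skull was tested as an interaction over 12 libraries. It passed the test in 8 of the 10 genes, always with the larger rise on the log2 scale in cortex. Tlr3 and Tlr9 were the others. Of all genes 17.6% passed, 14% with the higher response in cortex and 3.6% with the lower, and the median difference was 1.99 over the 10 genes and 0.2 over the 18863 genes tested. Of the genes that passed, 79.5% had the higher response in cortex, or 69.1% when genes 4-fold higher in cortex controls were left out of the library sizes, with the same count of 8 among the 10 genes. The difference was 4.00 ± 0.51 on the log2 scale for Tlr2 (adjusted p 0.000461), which followed a log2 change of 4.37 in cortex and 0.41 in skull. Tlr4 and Tlr7, which rose in cortex and did not pass in skull, differed by 2.72 ± 0.36 and 2.67 ± 0.30 (adjusted p 0.000518 and 0.00018). Tlr6 and Tlr1, also short of the threshold in skull, differed by 1.57 ± 0.27 and 1.38 ± 0.22 (adjusted p 0.00286 and 0.00187). For Tlr13 and Cd14, which rose in both tissues, the differences were 2.71 ± 0.28 and 2.40 ± 0.40 (adjusted p 9.82e-05 and 0.0022). Myd88 had the smallest difference that passed, 0.69 ± 0.17 (adjusted p 0.0162). For Tlr3 the difference was 0.29 with a 95% interval of -0.504 to 1.08, and for Tlr9 it was 0.50 with -0.706 to 1.7. Control cortex started from lower levels than control skull in the 8 genes that passed. In CPM, Myd88 alone of these rose more in skull. Its mean went from 24.1 to 43.9 CPM there and from 4.60 to 13.0 CPM in cortex.

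Control cortex held less of these transcripts than control skull in 8 of the 10 genes, in a comparison where 70.9% of all genes passed the threshold and 36.4% did so as lower and 34.5% as higher in cortex. The median log2 difference was -2.36 over the 10 genes and -0.035 over all genes, and the libraries were apart in the same 8 genes and in 76.7% of all genes. Tlr4 had 2.24, 0.900 and 2.30 CPM in control cortex, against 23.1, 21.8 and 21.1 CPM in control skull, on a scale set over these 6 libraries. That was a log2 difference of -3.61 ± 0.33 (adjusted p 7.21e-05), the widest of the 10. Tlr2 and Tlr6 followed with -3.19 ± 0.49 and -3.04 ± 0.18, then Tlr13, Myd88 and Cd14 with -2.60 ± 0.27, -2.42 ± 0.15 and -2.30 ± 0.29. Tlr7 and Tlr1 were closer, at -1.64 ± 0.26 and -1.31 ± 0.18. Tlr3 had 15.7, 11.02 and 15.8 CPM in cortex, against 15.2, 17.8 and 15.7 CPM in skull, and Tlr9 had 1.44, 1.43 and 1.63 CPM, against 2.03, 1.30 and 1.42 CPM. Both overlapped, with 95% intervals of -0.606 to 0.217 and -0.799 to 0.64. Neutrophil markers summed to 2.46 to 4.69 CPM in control cortex, against 1600 to 2720 CPM in control skull, and all 10 were lower in cortex. Osteoclast markers summed to 4.73 to 9.67 CPM in cortex, against 1150 to 1200 CPM in skull. The part of these cells in the tissue differences was not tested.

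To compare levels between the genes, CPM was divided by the kilobases of merged exon. In control cortex Tlr3 led with 2.70 CPM per kilobase, 26.2% of the sum of the 10 genes, ahead of Myd88 with 1.79, Tlr1 with 1.53 and Cd14 with 1.51. Tlr3 was clear of Myd88, while Myd88, Tlr1 and Cd14 overlapped from each to the next. The last 6, from Tlr7 with 0.645 to Tlr4 with 0.324, overlapped from each gene to the next. At day 2 Cd14 led with 16.4 CPM per kilobase, 30% of the sum, followed by Tlr2 with 9.17 and Tlr13 with 6.43, each clear of the next, and Tlr3 was seventh with 4.08. At day 6 Cd14 again led with 11.4, and the genes ranked second to seventh overlapped from each to the next. The sum over the 10 genes was 54.8 CPM per kilobase in cortex at day 2 and 36.8 at day 6, against 10.3 in control cortex. In skull Myd88 stood first in every group, with 17.0 CPM per kilobase at day 2 and 12.9 at day 4, against 9.37 in controls. Cd14 stood second, with 15.6 at day 2 and 7.44 at day 4, against 7.28 in controls, and overlapped Myd88 at day 2 but not in the other 2 skull groups. Tlr9 was last in 5 of the 6 groups, and in control cortex it stood above Tlr4 without being clear of it.

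**Figure D4:**
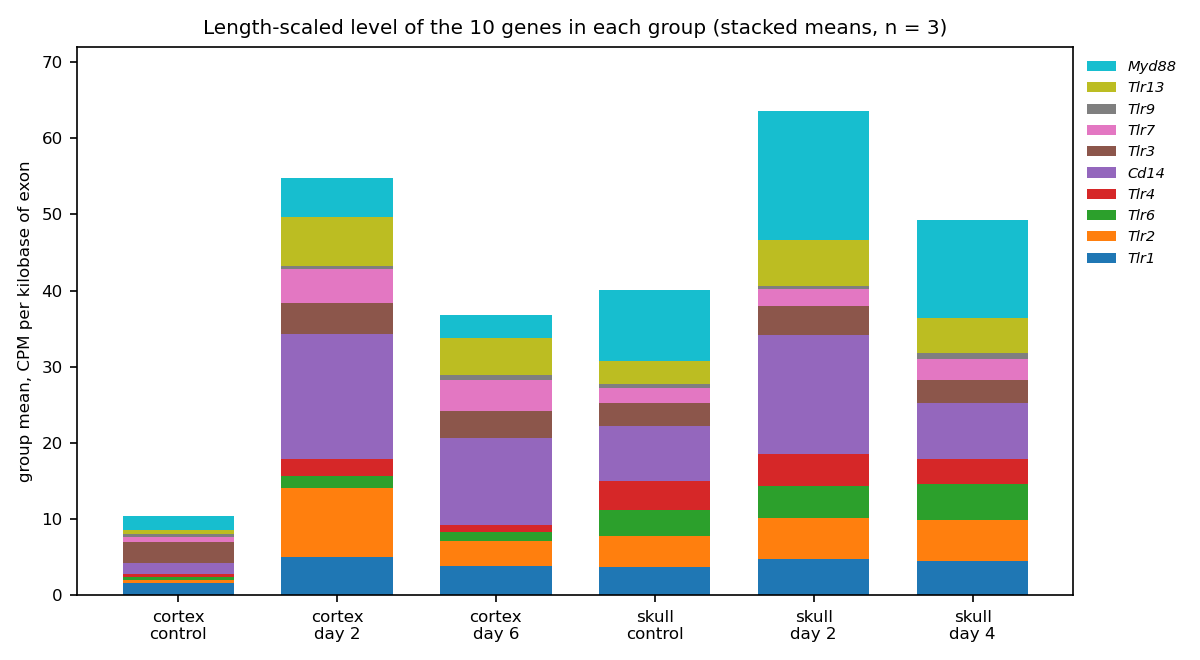
Mean length-scaled level (CPM per kilobase of exon, n = 3 libraries a group, no error drawn) of the 10 genes, stacked by gene for the 3 cortex groups and the 3 skull groups, which were scaled within each tissue. The cortex bars stand at 54.8 at day 2, 36.8 at day 6 and 10.3 for controls, and the Myd88 part is larger in each skull bar than in any cortex bar.

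Ratios of length-scaled levels within a library compare the RNA of 2 genes in bulk tissue and do not show which proteins pair. Tlr2 over Tlr1 was 1.64 to 1.95 in cortex at day 2 and 0.599 to 1.18 at day 6, against 0.0822 to 0.502 in control cortex. The ranges of the 3 groups did not meet, and the Tlr2 level exceeded that of Tlr1 in every day 2 library. In skull this ratio was 1.05 to 1.15 at day 2 and 1.15 to 1.23 at day 4, against 0.887 to 1.32 in controls. Tlr1 over Tlr6 was 3.02 to 3.68 in cortex at day 2, against 2.98 to 4.06 in control cortex, and 1.05 to 1.23 in skull at day 2, against 0.924 to 1.33 in control skull. So Tlr1 exceeded Tlr6 in every cortex library of these groups, and the ratio stood nearer to 1 in skull. Cd14 over Tlr4 was 5.18 to 9.75 in cortex at day 2 and 8.74 to 15.1 at day 6, against 3.5 to 6.15 in control cortex, and 3.4 to 4.19 in skull at day 2 and 2.22 to 2.3 at day 4, against 1.59 to 2.09 in control skull. Tlr13 over Tlr9 was 13.1 to 24.8 in cortex at day 2, against 1.02 to 1.35 in control cortex, and Tlr7 over Tlr9 was 8.47 to 18.2, against 1.05 to 2.08 in control cortex. These ratios are descriptions and were not tested.

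The other Toll-like receptor genes were thinly counted in cortex. Tlr8, an endosomal RNA receptor, had 1.94, 1.84 and 1.13 CPM at day 2 and 0.566, 2.88 and 4.12 CPM at day 6, against 0.209, 0 and 0.167 CPM in control cortex, where it had 9 reads in all. It passed the test as higher at both days (adjusted p 0.00622 and 0.00535), and in skull at day 4, with 5.71, 8.32 and 8.65 CPM against 3.62 to 4.59 CPM in controls (log2 0.83 ± 0.23, adjusted p 0.0452). Tlr11, a receptor for profilin, had 0, 1 and 4 reads in skull at day 2 and 15, 11 and 7 at day 4, against 16, 16 and 20 in skull controls, and it passed as lower at day 2 (adjusted p 0.00482) and as higher at day 4 than at day 2 (adjusted p 0.0202). It had 1 read over the 9 cortex libraries. Tlr5, the flagellin receptor, and Tlr12 did not pass the test within a tissue. In control cortex 3 of the 4, Tlr5, Tlr8 and Tlr11, were lower than in control skull.

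Counts of called genes on the lists of other pathway genes stand against the shares of all genes called. Higher than controls were 14.7% in cortex at day 2, 7.93% at day 6, 17.8% in skull at day 2 and 5.83% at day 4. The shares called lower were 9.99%, 2.39%, 16.6% and 4.79%, in that order. Between the injured days, 5.3% of all genes were higher and 6.26% lower at day 6 in cortex. In skull 10.6% were higher and 11.1% lower at day 4 than at day 2. A count near these shares is no result about a list. Of 17 co-receptor and chaperone genes, 11 rose at day 2 and the other 6 did not pass, with a median log2 change of 1.24. Cd180 and Ly86, a receptor of the same family and its partner, rose by 3.16 ± 0.36 and 2.73 ± 0.30 on the log2 scale. Unc93b1, which carries the endosomal receptors from the endoplasmic reticulum, rose by 2.40 ± 0.22 at day 6 and was higher at day 6 than at day 2 by 0.88 ± 0.21, as was the receptor-trimming protease gene Ctss by 0.78 ± 0.20. Lgmn, an endosomal protease gene, rose by 1.83 ± 0.20 at day 2, and Hsp90b1, the chaperone gp96 that folds most of these receptors, by 0.59 ± 0.08. At day 6, 9 of the 17 were higher than in controls and 8 did not pass (median 1.63), and against day 2 the count was 2 higher and 2 lower, Hsp90b1 and Trem1 being the lower ones. In skull 8 of 17 rose at day 2 (median 0.51), among them Hsp90b1 by 1.47 ± 0.12 and Lbp, which hands lipopolysaccharide to CD14, by 1.51 ± 0.14, and Cd36, a scavenger receptor gene, fell (log2 change -1.27 ± 0.27). At day 4 it was 3 higher, Unc93b1, Lbp and Ctss, and again Cd36 lower (median 0.36), and against day 2 it was 2 higher and 5 lower.

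Of the 5 other adaptor genes, 4 rose in cortex at day 2 and 1 fell, with a median log2 change of 1.41. Pik3ap1 rose by 2.48 ± 0.28, Ticam2 (TRAM, which links TLR4 to TRIF) by 2.78 ± 0.40, Tirap (which bridges TLR2 and TLR4 to MyD88) by 1.41 ± 0.27 and Ticam1 by 0.77 ± 0.25. Sarm1, the adaptor known mainly from neurons, fell by 0.47 (log2 change -0.47 ± 0.13, adjusted p 0.0135), while 6 of 7 neuron markers fell too and their part was not tested. At day 6 Pik3ap1 and Ticam2 were still higher, 2 of the 5 genes (median 0.74). In skull at day 2 Tirap rose by 0.37 ± 0.09 and Sarm1 fell (log2 change -1.13 ± 0.23), beside 7 of 7 neuron markers lower, and at day 4 Sarm1 alone passed, again lower (log2 change -1.04 ± 0.23). The medians of the 5 in skull were 0.087 at day 2 and 0.30 at day 4.

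The relay of IRAK, TRAF and other signalling genes below the adaptors held fewer called genes than genes that did not pass. In cortex at day 2, 5 of its 15 genes rose and 10 did not pass, with a median log2 change of 0.25, among them Irak4, the first kinase recruited, by 1.47 ± 0.24, Irak1 by 0.54 ± 0.10, Ikbke by 1.66 ± 0.29 and Map3k8 by 1.73 ± 0.34. At day 6, 3 of 15 were higher (Ikbke, Irak4 and Irak1; median 0.069), and against day 2 the ubiquitin ligase gene Traf6 was lower (log2 change -0.52 ± 0.13). In skull 4 of 15 rose at day 2 (Ube2n, Irak4, Map3k7 and Map3k8; median 0.14) and 2 of 15 at day 4 (Tab2 and Irak4; median 0.12). Of the 13 NF-kB and IRF genes, 8 rose in cortex at day 2 (median 0.7), and those with the smallest adjusted p were the interferon regulatory factors Irf7 with 3.06 ± 0.31, Irf5 with 2.12 ± 0.28, Irf8 with 2.11 ± 0.25 and Irf1 with 1.59 ± 0.21. At day 6 it was 6 of 13 (median 0.41), and Irf1 and Irf7 had fallen below their day 2 level. In skull Nfkb2 and Relb passed as higher at day 2, 2 of 13 genes (median -0.066), no larger a share than the 17.8% of all genes, and Irf8 alone rose at day 4, by 0.97 ± 0.12 (median 0.13).

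Some inhibitors of the pathway rose as well. In cortex at day 2, 9 of 18 genes rose and 9 did not pass (median 0.92), among them Nfkbia, which holds NF-kB in the cytoplasm, by 1.41 ± 0.17, the RNase gene Zc3h12a by 2.28 ± 0.37 and the inhibitory receptor gene Lilrb4a by 5.85 ± 0.67. At day 6, 5 of 18 were higher (median 0.49), and Nfkbia and Zc3h12a were lower at day 6 than at day 2 while Trafd1 was higher. In skull 6 of 18 rose at day 2 and 1, Cyld, fell (median 0.2), with Il1rl1 up by 1.82 ± 0.23 and Zc3h12a by 1.18 ± 0.20, and 4 of 18 rose at day 4 (median 0.31). Of 16 genes for molecules reported as ligands from the body itself, 10 rose in cortex at day 2 and 6 did not pass (median 1.34), and 7 were higher at day 6 (median 0.70). S100a9, a neutrophil protein, had 27.7 ± 3.16 CPM at day 2, against 0.607 ± 0.313 CPM in controls (SD, n = 3), and Prdx1 rose by 1.03 ± 0.11 on the log2 scale. Saa3 had 17.6 ± 5.97 CPM at day 2 and no read in the 3 control libraries of cortex. In skull 8 of the 16 rose at day 2 (median 0.69), among them Hspd1, Prdx1, Sdc1 and Fn1, and at day 4 the list was split, with 6 higher, such as S100a8 and S100a9, and 4 lower, all heat shock genes (Hsp90aa1, Hspa8, Hspa1a and Hspa1b; median 0.2).

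Genes that NF-kB turns on within hours of receptor activation rose at day 2 in most tested members in both tissues, and most were lower on the later day. In cortex at day 2 all 15 tested of 17 in the table rose, with a median log2 change of 4.84, the same with 2 genes that had no control read set at their lower bound. Cxcl1, a neutrophil chemokine, had 18.8 ± 5.83 CPM at day 2, against 0.0419 ± 0.0725 CPM in control cortex, and Ccl2, a monocyte chemokine, had 18.8 ± 5.87 CPM, against 0.0279 ± 0.0484 CPM. Nfkbiz and Ier3 rose by 1.76 ± 0.16 and 2.20 ± 0.19 on the log2 scale. At day 6, 8 of the 15 were higher than in controls (median 2.69, or 2.59 with the bounds), among them Icam1 by 2.69 ± 0.31, and 11 of 15 were lower than at day 2, with log2 changes of -5.78 ± 0.43 for Cxcl1 and -2.03 ± 0.20 for Ier3. In skull 10 of 15 rose at day 2 (median 2.74), such as Nos2 by 4.61 ± 0.32, Cxcl1 by 3.69 ± 0.42, Ier3 by 2.38 ± 0.18 and Nfkbiz by 1.02 ± 0.12. At day 4, 0 of the 15 passed edgeR's test against controls (0 had an unadjusted p below 0.05; median 0.2), and 9 of 15 were lower than at day 2.

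The difference of the day 2 responses took in part of these lists. It passed with the higher response in cortex for 7 of 17 co-receptors and chaperones, 3 of 5 adaptors, 4 of 15 relay genes, 6 of 13 NF-kB and IRF genes, 6 of 18 inhibitors, 7 of 16 ligands, 7 of 16 target genes and, of the other receptors, Tlr8. It passed the other way for Hsp90b1 (-0.82 ± 0.15), Ube2n (-0.61 ± 0.14) and Ptgs2 (-2.17 ± 0.35), with a median difference over all genes of 0.2. Of all genes, 14% passed with the higher response in cortex and 3.6% with the lower. Between the controls of the 2 tissues, 36.4% of all genes were lower in cortex and 34.5% were higher. In control cortex against control skull, 15 of 17 co-receptors and chaperones, 4 of 5 adaptors, 8 of 15 relay genes, 11 of 13 NF-kB and IRF genes, 14 of 18 inhibitors, 12 of 15 ligands and 9 of 11 target genes were lower in cortex, and Sarm1, Ube2n, Tab3, Traf3, Tbk1, Tollip, Cyld, Hsp90aa1 and Hspa8 were higher.

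The nearest profiles were sought by the root mean square difference of log2(CPM + 1) over the 18 libraries, with each gene centred within each tissue. Tlr2 lay nearest to Cd44, at a difference of 0.186 against its own spread of 1.12, and then to Ms4a6b and S100a11. Tlr7 lay nearest to Ggta1 at 0.15 and to the Fc receptor gene Fcgr3 at 0.191, against its own spread of 0.816, and Tlr13 to Tmem106a at 0.216, Srgn and Fcgr4 against 1.06. Cd14 was nearest to Msn at 0.294 against 1.03. The closest match of Myd88 was Brip1os at 0.124 and that of Tlr1 was Galnt4 at 0.136, while Tlr6 was nearest to Birc3 at 0.126, a gene that was also the third nearest to Tlr1. Tlr3 and Tlr9 varied least, with spreads of 0.316 and 0.365, and their nearest genes, Tjp1 at 0.177 and Sema4d at 0.171, lay at distances that are best read against those spreads. The search covered 14211 genes for the 7 members with the higher level in skull and 13845 genes for Tlr3, Tlr7 and Tlr9.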

How the data were processed

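The labels' protocols describe TRIzol extraction, DNase treatment, poly(A) selection, NEBNext library preparation and paired Illumina reads of 150 bases. Alignment used HISAT2 2.1.0 to mm10, per the submitters' processing notes. For the counting step, neither program nor gene annotation nor strand is given in the sources used here. The authors deposited raw read counts per gene without normalization. Of 26783 lines, 865 were surplus identical copies, which left 25918 names. Each column was assigned by its name, and no library was identical to another.

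edgeR 4.0.16 in R 4.3.3 (filterByExpr, TMM, robust quasi-likelihood fit) was run over the 9 libraries of each tissue, over 12 for the difference of the day 2 responses and over 6 for the controls. Tests were two-sided and adjusted by Benjamini-Hochberg across every gene tested, with calls at an adjusted p below 0.05. The comparisons with a shared control or day share those libraries. Errors of log2 changes are standard errors from the quasi-likelihood F, and changes use a prior count of 0.125. CPM is TMM-scaled within the fit, except where it is given of the library total. Exon lengths and positions came from GENCODE M21 (mm10), and promoters from RefSeq. Alternatives used limma 3.58.1 (voom), DESeq2 1.42.0, other scaling factors, filters and library sizes, fits restricted to the groups compared, replicate number as a block, and omission of each library.

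The 10 genes, the 8 lists of 108 other pathway genes (105 in the table), the marker lists and the tests were chosen with earlier results of these data known. Besides the 10 genes, the text names from each list up to 4 called genes with the smallest adjusted p and called genes that go against their list, and the 3 nearest profiles of each gene, not all of which are printed. Ly96, Ticam1, Acaa1a, Tlr5 and Tlr12 were named after their values were seen. On simulated data, 80% of genes changed 2-fold and 94% of those changed 4-fold were recovered for cortex at day 2 (17756 genes). For skull at day 2 it was 60% and 89% (17219 genes) and for the difference of responses 25% and 65% (18394 genes), with 9.84%, 3.25% and 2.17% of calls false.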

Additional observations from a re-analysis of the deposited data

Results flagged for a closer look

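In 8 genes the response at day 2 differed between the tissues by a test of the difference itself (edgeR's quasi-likelihood interaction test). Each had the larger rise on the log2 scale in cortex, where its control level was lower than in skull. In CPM, Myd88 rose more in skull. The log2 difference was 4.00 for Tlr2, 2.72 for Tlr4, 2.71 for Tlr13, 2.67 for Tlr7, 2.40 for Cd14, 1.57 for Tlr6, 1.38 for Tlr1 and 0.69 for Myd88, with adjusted p-values between 9.82e-05 and 0.0162. Of all genes tested, 14% differed in this direction. Beside it, 7 of 7 macrophage, 5 of 6 monocyte, 6 of 10 neutrophil, 4 of 5 endothelial and 4 of 5 astrocyte markers also had the higher response in cortex. So did 4 of 7 neuron markers, although 6 of 7 were lower than controls in cortex at day 2, because 7 of 7 were lower in skull. In skull at day 2, 1 of 5 astrocyte markers was higher and 2 were lower. The part of these cells in the differences was not tested.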

How the results depend on the processing

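The 10 genes were recomputed in 1470 values under the alternatives. Of these, 1408 kept their direction and their side of the threshold, 31 lost the call, 12 gained it and 19 turned sign, with no called value among the 19. Without leaving out a library, each alternative called 9 of the 10 genes for cortex at day 2, 8 for the controls and 8 for the difference of responses, against 7 or 8 in cortex at day 6, 2 or 3 between the cortex days, 3 or 4 in skull at day 2, and 3 or 4 between the skull days. In skull at day 4, DESeq2 called 2 (Tlr2 and Myd88) and the fit of the compared groups alone called 0, where the main count was 1 and the cause was not tested. Leaving out each library in turn gave 8 to 9 in cortex at day 2, 6 to 8 at day 6, 0 to 3 between the cortex days, 3 to 5 in skull at day 2, 0 to 2 at day 4, 1 to 4 between the skull days, and 8 in the difference of responses and in the controls. The count between the cortex days was 1 without day 2 replicate 1 and 0 without day 2 replicate 2 or day 6 replicate 1 or 3. In skull at day 4 it was 2 without control replicate 2, and between the skull days it was 1 without day 4 replicate 1.

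Tlr2 between the cortex days passed with voom (adjusted p 0.0086), with the compared groups alone (0.0124) and with a stricter filter (0.0498), and Tlr6 at day 6 missed with voom (0.0507). Cd14 in skull at day 4 turned sign without the genes 4-fold higher in cortex controls in the library size (log2 -0.0051) and with the compared groups alone (-0.0043), and Tlr2 between the skull days with the compared groups alone (-0.016). With single libraries left out, Cd14 in skull at day 4 ranged from -0.061 to 0.11, and between the skull days Tlr1 ranged from -0.13 to 0.00023, Tlr2 from -0.041 to 0.11 and Tlr3 from -0.57 to 0.062. Tlr3 in skull ranged from -0.084 to 0.55 at day 2 and from -0.11 to 0.11 at day 4. Tlr9 ranged from -0.23 to 0.22 in cortex at day 2 and from -0.21 to 0.14 between the controls.

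Over all genes, skull at day 4 had 1853 calls, against 2842 with DESeq2, 1004 with the compared groups alone and 10 to 2537 with single libraries left out. The same range was 3136 to 4622 in cortex at day 2, 1005 to 2198 at day 6, 910 to 2329 between the cortex days, 4024 to 6508 in skull at day 2, 2260 to 4633 between the skull days, 2185 to 3979 for the difference of responses and 11652 to 12998 for the controls. In the difference of responses, 79.5% of calls were higher in cortex (2633 against 680), and 69.1% (2328 against 1043, median log2 0.11) without the genes 4-fold higher in cortex controls. No label says whether replicate numbers pair the samples. Deviations of same-numbered libraries correlated at -0.0579 to 0.324 in cortex, with 4 of 9 pairs over 0.1 against 2 of 18 differently numbered pairs, and at -0.496 to 0.174 in skull, with 4 of 9 against 7 of 18, so the numbers were not taken as a pairing. With the replicate number as a block the counts of the 10 genes were 9, 8 and 2 in cortex at day 2, at day 6 and between the days, 4, 1 and 3 in skull, and 8 for the difference of responses, while calls over all genes in skull at day 4 fell to 765. The controls of the tissues share numbers only across tissues, and a block on these, chosen after seeing the data, gave 8. Low counts limit Tlr9, with a median of 30.5 reads.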
